A study of Mus musculus with 34 samples.

Results

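The regions described here are 64 stretches of the mouse genome, none of them on chromosome 13, where H3K27ac was higher in both embryonic stem cell lines that carry a DBA/2J (D2) segment of chromosome 13 than in both lines that carry the C57BL/6J (B6) segment. They were selected on the H3K27ac read counts themselves, in 12 libraries from 4 lines. Counts are given as CPM, the usual scaling of a count by its library's total. A region off chromosomes 13, X and Y was kept when its mean was at least 1 CPM in both lines with the D2 segment, and when each of those 2 means was at least 1.7 times the mean plus 0.1 CPM of each line with the B6 segment. This kept 64 of the 95054 regions that met the level requirement, or 0.0673%, out of 229016 regions off those chromosomes and 248336 in all. H3K27ac in these 12 libraries is therefore given as a description, without tests.

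H3K27ac, acetylation of lysine 27 of histone H3, marks active promoters and enhancers and is removed where they fall silent. H3K9me3, trimethylation of lysine 9, marks heterochromatin. In embryonic stem cells it is placed over transposable elements and other repeats, in large part by SETDB1 that KAP1 brings to sites bound by KRAB zinc finger proteins, and it is usually sparse where H3K27ac is high.

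The study measured both marks by chromatin immunoprecipitation and sequencing in 34 libraries that fall into 12 groups. One set of libraries repeats 1 line per genotype as technical replicates: B6 5-1 (C57BL/6J), D2 5-5 (DBA/2J), QJ 6-1 (B6.D2-(rs30079041-rs51756099)/Bakr, here B6-13D2, a D2 segment on a B6 background) and XE 2-4 (D2.B6-(rs29224292-rs13469455)/Bakr, here D2-13B6, the reciprocal line; the series description gives rs51756099 as its end marker). The other set has 3 B6 lines (4-1, 4-4 and 5-1) and 3 D2 lines (2-9, 5-5 and 203), called biological replicates in the labels, and an H3K27ac antibody from another maker. Every group was cultured in medium that held serum, LIF, the MEK inhibitor PD0325901 and the GSK3 inhibitor CHIR99021. Each genotype contrast in the repeated set compares 1 line with 1 line. Outside the introgressed segment B6-13D2 has B6 DNA and D2-13B6 has D2 DNA by design, so within each background the 2 lines compared share their sequence at these regions as far as the strain names say.

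H3K27ac totals were 8735674 to 11543469 counts in the 12 repeated libraries and 15444270 to 18272793 in the 6 of separate lines. H3K9me3 totals were 1538145 to 2185977 in the 10 repeated libraries and 1487862 to 2559262 in the 6 of separate lines. In the repeated H3K27ac set, 1 pair of libraries per line differed by less than the sampling noise (chi-square divided by its degrees of freedom, 0.905 to 0.967). Each such pair was counted as 1 sample, so a mean ± SD there has n = 2. The other pairs of B6, B6-13D2 and D2 were near that noise too, at 1.005 to 1.027. An SD in these lines therefore measures little beyond counting noise. Replicate 1 of D2-13B6 stood apart from the other two of its line, with chi-square per degree of freedom of 2.806 and 2.791 in H3K27ac and of 2.455 and 2.467 in H3K9me3. Regions at the starts of 10 of 10 embryonic stem cell marker genes were present, though Esrrb was only at 0.106 to 1.356 CPM. Their H3K27ac summed to 1058 to 1115 CPM in B6, 1135 to 1172 in B6-13D2, 1224 to 1251 in D2 and 1238 to 1258 in D2-13B6. That sum was higher in B6-13D2 than in B6 with no overlap, and overlapped between D2 and D2-13B6. Its part in the results was not tested. Fibroblast feeder markers summed to 13.4 to 16.6 CPM in B6, 23.7 to 29.0 in B6-13D2, 39.5 to 42.7 in D2, and 21.4, 39.8 and 37.8 in replicates 1, 2 and 3 of D2-13B6, over 5 of 7 markers with a region (Col3a1 and Postn had none). Neural markers (5 of 5 with a region) summed to 16.4 to 20.7 CPM in B6 and 20.96 to 22.9 in B6-13D2, and to 22.4 to 31.4 in D2-13B6 and 32.6 to 33.5 in D2. The neural sum was thus higher with the D2 segment in both backgrounds with no overlap between libraries, as the members' H3K27ac was. Its markers did not all move together. Tubb3 was higher in B6-13D2 (10.4 to 11.9 CPM) than in B6 (5.82 to 8.025). Pax6 was lower (1.095 to 1.546 against 2.261 to 3.08), and neither overlapped. Sox1, Nes and Zic1 overlapped there. In D2, Tubb3, Pax6 and Zic1 were above D2-13B6 without overlap, and Sox1 and Nes overlapped. The part of the neural sum in the results was not tested. The trophoblast sum (6 of 6 markers) was higher in B6-13D2 (27.9 to 34.7 CPM) than in B6 (20.2 to 25.3). Of its markers only Cdx2 and Tfap2c were higher there without overlap. The sum overlapped between D2 (29.7 to 35.7) and D2-13B6 (30.7 to 39.9). Primitive endoderm markers (3 of 7) were lower in B6-13D2 (7.21 to 8.19 CPM) than in B6 (9.82 to 12.8), with no overlap, and overlapped between D2 (9.93 to 12.3) and D2-13B6 (9.29 to 12.3). The parts of these sums in the results were not tested either. The feeder sum was higher in B6-13D2 than in B6, as the members' H3K27ac was. In D2 (39.5 to 42.7 CPM) it was above replicate 1 of D2-13B6 (21.4) and close to replicates 2 and 3 (39.8 and 37.8). The part of the feeder sum in the results was not tested.

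The members are shown first by the DNA that carries the highest ratios. The 5 windows come from members among the 10 with the largest smallest ratio, and are shown because the results return to them: up to 300 bases from the middle of the region, GRCm38, plus strand, in lower case, with matches to the searched transcription factor motifs in capitals. They lie at chr6:23085176-23085475 (intron of Aass), chr8:24939343-24939642 (intron of Adam32), chr8:24921384-24921683 (centred on a region over a coding exon of Adam32), chr2:154354568-154354824 (intron of Cdk5rap1, a whole region of 257 bp) and chr6:50196934-50197233 (region overlapping both Mpp6 and Gsdme and a coding exon).
Aass: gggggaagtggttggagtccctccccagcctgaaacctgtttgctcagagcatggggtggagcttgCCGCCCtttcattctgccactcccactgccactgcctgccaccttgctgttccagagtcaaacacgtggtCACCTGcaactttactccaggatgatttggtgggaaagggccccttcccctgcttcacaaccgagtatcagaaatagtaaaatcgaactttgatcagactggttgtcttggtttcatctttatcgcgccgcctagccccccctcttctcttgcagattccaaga
Adam32, first: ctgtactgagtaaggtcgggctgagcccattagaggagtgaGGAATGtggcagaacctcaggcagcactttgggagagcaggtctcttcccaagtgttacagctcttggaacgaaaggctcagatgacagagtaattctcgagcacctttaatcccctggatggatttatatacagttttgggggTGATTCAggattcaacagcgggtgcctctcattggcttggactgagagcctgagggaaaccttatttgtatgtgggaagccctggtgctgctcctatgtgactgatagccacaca
Adam32, second: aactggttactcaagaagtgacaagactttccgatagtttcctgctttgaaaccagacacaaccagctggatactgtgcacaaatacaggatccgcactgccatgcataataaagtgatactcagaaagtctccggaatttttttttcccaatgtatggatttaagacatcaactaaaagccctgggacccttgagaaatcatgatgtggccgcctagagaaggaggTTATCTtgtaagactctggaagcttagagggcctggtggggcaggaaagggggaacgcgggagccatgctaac
Cdk5rap1: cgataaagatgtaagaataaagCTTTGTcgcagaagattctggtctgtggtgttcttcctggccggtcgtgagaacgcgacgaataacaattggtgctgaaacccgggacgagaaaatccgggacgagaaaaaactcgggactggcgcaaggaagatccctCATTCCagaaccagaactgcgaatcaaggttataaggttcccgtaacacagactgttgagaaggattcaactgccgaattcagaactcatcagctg
Mpp6 and Gsdme: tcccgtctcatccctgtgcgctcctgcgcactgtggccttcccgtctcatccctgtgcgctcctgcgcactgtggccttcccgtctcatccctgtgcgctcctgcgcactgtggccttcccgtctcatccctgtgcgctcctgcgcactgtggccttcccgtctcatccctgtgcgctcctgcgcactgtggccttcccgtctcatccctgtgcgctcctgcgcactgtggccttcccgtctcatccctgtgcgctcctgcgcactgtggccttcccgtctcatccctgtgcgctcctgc
The capitals mark KLF and E-box letters in Aass, TEAD and AP-1 letters in the first Adam32 window, GATA letters in the second, and SOX and TEAD letters in Cdk5rap1. The Mpp6 and Gsdme window holds no match and is a tandem array, in which the same words recur at a spacing of 39 bases. Words of 12 bases that recur within 200 bases covered 25.0% of this 1492 bp region, a measure chosen after the sequence had been seen. Among the members 2 reached 20% on it, 3.125%, against 1.18% of all eligible regions.

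The 13 motifs were searched on both strands in the middle 300 bases, as letters and with no test; a match is a description and not a site. AP-1 letters (TGANTCA) were in 18 members, 28.12%, against 13.58% of the 95054 eligible regions. TEAD letters (GGAATG) were also in 18, 28.12% against 19.87%. SOX letters (ACAAAG) were in 21 members, 32.81% against 26.67%, and GATA letters (AGATAA) in 11, 17.19% against 11.85%. The ESRRB word TCAAGGTCA was in 3, 4.69% against 1.7%, and the POU octamer ATGCAAAT in 3, against 2.85%. KLF letters (GGGCGG) were in 5, 7.81% against 17%, and E-box letters (CACCTG) in 11, against 24.8%. The CTCF core AGGGGGC was in 2 members, 3.12% against 6.13%, and the ETS word CCGGAAGT in 1, 1.56% against 1.11%. CRE (TGACGTCA), NRF1 (CGCATGCG) and YY1 (AAGATGGC) letters were in 0, against 0.52%, 0.39% and 3.88% of eligible regions.

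Most members lay away from gene starts. Of the 64 regions 2 overlapped the 1 kb on either side of a protein-coding gene's start, 3.125% against 12.575% of eligible regions. In the remaining classes, 10 overlapped a coding exon (15.6% against 10.3% of eligible regions) and 6 a noncoding exon (9.4% against 5.2%). A further 25 overlapped an intron (39.1% against 36.6%) and 21 lay between genes (32.8% against 32.7%). The median width was 849.5 bp (931 bp among eligible regions), the median distance to a protein-coding gene's start 25.6 kb (23.4 kb) and the median GC content 46.5% (48.4%). Soft-masked repeat sequence made up a median of 20.9% of a member, against 16.8% of an eligible region, and 3 members were masked over their whole length. Chromosome 8 held 12 members, 18.75% against 5.37% of eligible regions, 8 of them in Adam32 and 2 in Hydin, and chromosome 11 held 0, against 7.64%. None of the 64 had an overlapping or nearest protein-coding gene on any of 10 lists. These covered naive and primed pluripotency, primitive endoderm, trophectoderm, the 2-cell-like state, germline, imprinted, heterochromatin, WNT and FGF signalling and zinc finger genes. The zinc finger list, the most frequent, accounts for 2.394% of eligible regions and the others for 0.034% to 0.609% each. With 64 members, a count of 0 is close to these shares.

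H3K27ac ran from a median of 2.87 CPM in B6 and 2.80 CPM in D2-13B6 to 6.52 CPM in B6-13D2 and 7.30 CPM in D2, over the 64 regions. Without the added 0.1 CPM, the ratio of B6-13D2 to B6 had a median of 2.39 and ran from 1.80 to 13.1. The ratio of D2 to D2-13B6 had a median of 2.35 and ran from 1.75 to 4.63, and both ratios were bounded from below by the rule. The larger ratio was in the B6 background for 34 members and in the D2 background for 30. At 59 members every library of the lines with the D2 segment was above every library of the lines with the B6 segment, an order that 1.09% of eligible regions showed and that the rule favours. The 5 exceptions, in or near Dlgap2, Ano4, Psmc6, Col15a1 and Rarb, were all at low levels. The members closest inside the ratio of 1.7 were chr10:59380116-59381091 near Gm10273 (1.7001) and chr8:47543816-47544677 in Rwdd4a (1.7007). The closest outside were chr3:89672482-89673821 (1.697) and chr6:88693051-88693754 (1.698).

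**Figure D1:**
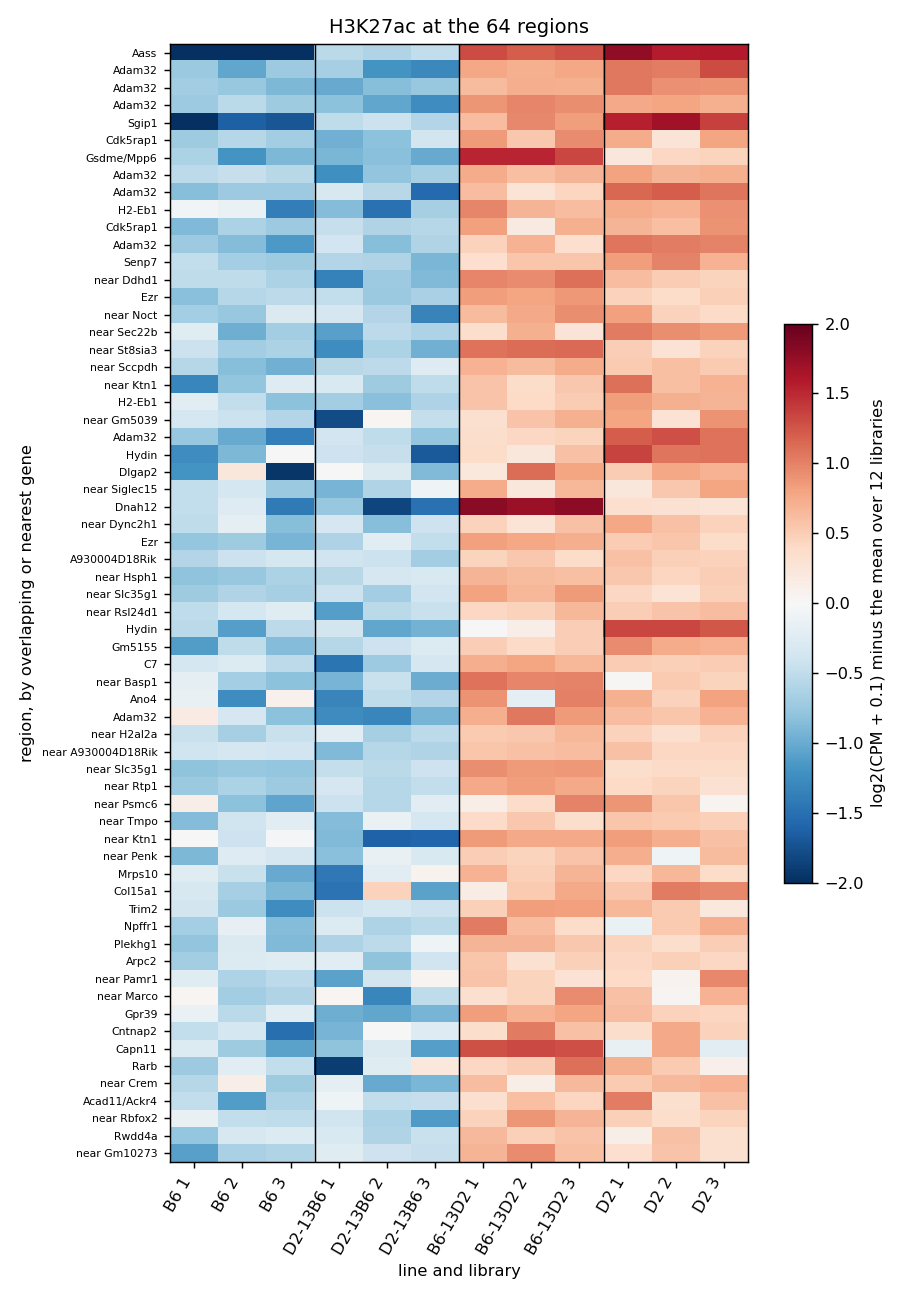
H3K27ac at each of the 64 regions (rows, named by overlapping or nearest protein-coding gene and ordered by the smallest of the 4 ratios) in 12 libraries (columns, 3 per line), as log2(CPM + 0.1) minus the row's mean. The 6 columns on the right, from lines with the D2 segment, are higher in nearly every row because the rule required higher means, and 59 rows have no overlap between the left and right columns.

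The member with the largest smallest ratio, 3.47, was chr6:23084870-23085782 in an intron of Aass, which encodes the first enzyme of lysine breakdown. Its H3K27ac was 1.13, 1.38 and 1.60 CPM in the B6 libraries and 18.4, 17.3 and 18.3 CPM in B6-13D2. In D2 it was 25.8, 22.3 and 22.5 CPM, and in D2-13B6 5.10, 4.88 and 5.28 CPM. The 4 lines thus took 4 separate levels, 1.43 ± 0.239, 17.8 ± 0.759, 23.3 ± 1.35 and 5.09 ± 0.0078 CPM (SD, n = 2) in B6, B6-13D2, D2 and D2-13B6, and the ratio was 13.1 between B6-13D2 and B6 and 4.63 between D2 and D2-13B6. The region in Sgip1 had the same order at lower levels. Sgip1 encodes a protein that acts in endocytosis. H3K27ac there was 0.565, 0.850 and 0.799 CPM in B6, 1.96, 2.08 and 1.86 in D2-13B6, 4.38, 5.64 and 5.11 in B6-13D2, and 8.49, 9.27 and 7.44 in D2.

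Adam32, which encodes a membrane protein of the metalloprotease-related ADAM family, held 8 of the 64 members in 39.8 kb of chromosome 8, chr8:24909425-24949238, out of 9 regions in that stretch. These 8 are neighbouring parts of 1 gene and not independent observations. Summed over them, H3K27ac was 73.6 to 79.7 CPM in the B6 libraries, 186.0 to 193.8 in B6-13D2, 212.8 to 225.4 in D2 and 60.8 to 69.8 in D2-13B6. The most marked, chr8:24915972-24919956 over coding exons, was at 48.7, 50.7 and 47.6 CPM in B6 and 117, 106 and 113 in B6-13D2. It was at 122, 112 and 115 CPM in D2 and 30.0, 40.6 and 43.9 in D2-13B6, where replicate 1 was the lowest. The gene's start lies in a member too, chr8:24947642-24949238, with 3.17 ± 0.777 CPM in B6, 9.26 ± 0.0234 in B6-13D2, 16.3 ± 1.02 in D2 and 4.86 ± 0.609 in D2-13B6 (SD, n = 2). Per kb of region, the level in D2 ran from 8.37 CPM at 12.5 kb from the start to 29.1 CPM at 28.8 kb, and the ratio at these 8 regions was 2.28 to 3.13 in the B6 background and 3.04 to 4.51 in the D2 background, values that the rule selected. The ninth region of the stretch, at 2.18 CPM in B6-13D2, was not a member, with a smallest ratio of 1.345.

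**Figure D2:**
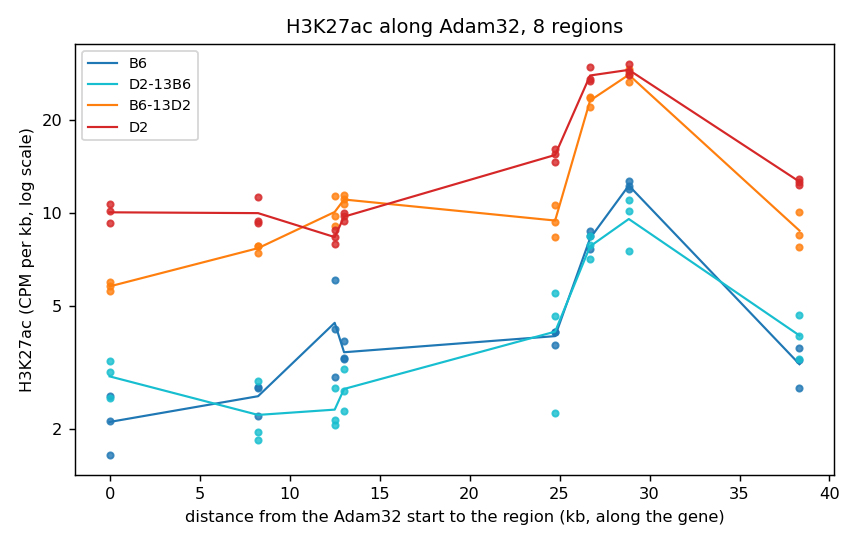
H3K27ac of the 8 Adam32 regions, in CPM per kb of region on a log axis, against the distance from the gene's start in kb. Points are single libraries, lines join the means of 3 libraries, and B6-13D2 and D2 lie above B6 and D2-13B6 in all 8 regions.

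The second region at a gene start was chr17:34305513-34306308 at H2-Eb1, which encodes a beta chain of the MHC class II molecules that present peptides to T cells; it also overlaps an antisense gene, Gm20513. Its H3K27ac was 2.15, 2.02 and 0.799 CPM in B6, 4.47, 3.64 and 3.47 in B6-13D2, 3.80, 3.66 and 4.32 in D2 and 1.18, 0.726 and 1.37 in D2-13B6. The libraries did not overlap between the lines with and without the D2 segment, at levels of a few CPM. A further member lay at chr17:34313330-34314780 in the same gene. The other 2 regions between them were not members, with smallest ratios of 1.06 and 1.26 and up to 51.5 CPM in B6-13D2. Several members also lay together in other stretches. On chromosome 2, 3 of 4 regions between chr2:18015413 and 18033044, around the uncharacterised gene A930004D18Rik, were members. They summed with the fourth to 109 CPM in B6, 207 in B6-13D2, 235 in D2 and 147 in D2-13B6; the fourth had a smallest ratio of 1.11. On chromosome 19 both regions of chr19:38386422-38390483, near the solute carrier gene Slc35g1, were members, with sums of 29.3, 91.1, 64.7 and 35.8 CPM in B6, B6-13D2, D2 and D2-13B6. In all, the 64 members formed 49 stretches when those under 100 kb apart were joined, 41 of them of a single region.

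H3K9me3 at the same regions was not used to choose them. In the repeated libraries 40 of the 64 had enough H3K9me3 reads to be tested, and 24 did not. The regions that changed lost H3K9me3 where the D2 segment was present. In the B6 background 11 members were lower in B6-13D2 than in B6 and 0 were higher, by edgeR's quasi-likelihood test with Benjamini-Hochberg adjustment over all 86874 tested regions. Over all tested regions 0.458% were lower and 1.23% higher in that contrast. In the D2 background 4 members were lower in D2 than in D2-13B6 and 0 higher, against 0.395% lower and 1.81% higher over all. Averaged over both backgrounds 14 were lower and 0 higher, against 0.73% and 2.28%. The members' median log2 fold change was -0.79, -0.50 and -0.72 in these 3 contrasts, against -0.03, -0.01 and -0.02 over all tested regions, and the average was below 0 at 34 of the 40. At an unadjusted p under 0.05 the counts were 19, 14 and 21 lower and 1, 0 and 0 higher, and DESeq2 called 4, 2 and 9 lower and 0 higher. The median width was 1238 bp at the 14 members called in the average, 1110 bp at the 26 tested and not called and 541 bp at the 24 not tested, and their median H3K9me3 in B6 was 13.4, 8.15 and 2.40 CPM. The 40 therefore do not stand for all 64.

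The counts moved when single libraries were left out. B6-13D2 and D2 have 2 H3K9me3 libraries each, so leaving out 1 leaves a single library, which is assumed to vary like the other lines, from which the fit then takes the spread. The filter on low counts also shifts, and 47 to 49 members were tested in these settings in place of 40. These counts therefore do not show how stable the calls are. Without replicate 1 of B6-13D2 the B6-background count was 4 and without its replicate 2 it was 7. In the D2 background 2 members were called without replicate 2 of D2, and 2 without replicate 1 of D2-13B6, a line with 3 libraries. The average count was 9 without replicate 1 of D2 or without replicate 1 of B6-13D2, and 14 without replicate 1 of D2-13B6, the library that stood apart. The difference between the backgrounds was tested as an interaction, with 0 members called in either direction against 0.0737% higher and 0.315% lower over all; 0 and 3 had an unadjusted p under 0.05, and DESeq2 called 0.

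Summed over all 64 members, tested or not, H3K9me3 was 663.2 to 688.8 CPM in the B6 libraries, 415.3 to 440.5 in B6-13D2, 315.8 to 338.9 in D2 and 406.7 to 521.4 in D2-13B6. B6-13D2 lay below B6 and D2 below D2-13B6 with no overlap between libraries. Without the 14 members called in the average contrast, B6-13D2 stayed below B6, but the libraries of D2 and D2-13B6 overlapped. D2-13B6 was also below B6. Over the 14 members called in the average contrast the sums were 293.8 to 298.2, 109.7 to 120.9, 61.0 to 73.3 and 138.2 to 179.4 CPM in the same order of lines. These 14 were chosen by their H3K9me3 in these same libraries, so their lower sums with the D2 segment restate that choice.

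Lower H3K9me3 in both backgrounds was called at 4 members. Over all 81208 tested regions off chromosomes 13, X and Y it was called at 43, or 0.053%. The largest change was at the tandem array, chr6:50196338-50197829, shared by Mpp6, which encodes a membrane scaffold of the MAGUK family, and Gsdme, which encodes a pore-forming gasdermin. H3K9me3 there was 22.9, 25.7 and 19.9 CPM in B6 and 1.42 and 0.944 in B6-13D2, from 46, 49, 39, 3 and 2 reads. It was 0 and 2.62 CPM in D2, from 0 and 5 reads, where the count of 0 allows up to 1.91 CPM, and 20.8, 8.28 and 8.69 in D2-13B6. The libraries of the lines with the D2 segment were all below those without it, and replicate 1 of D2-13B6 was the highest of its line. The log2 fold change was -4.21 ± 0.45 (SE; adjusted p = 5e-14) in the B6 background and -3.03 ± 0.53 (adjusted p = 1.3e-05) in the D2 background. H3K27ac in the same region was 1.92, 1.27 and 1.60 CPM in B6 and 8.94, 9.00 and 7.88 in B6-13D2, and 3.60, 4.12 and 4.21 in D2 against 1.57, 1.66 and 1.47 in D2-13B6. How reads were placed among the copies of the array was not examined for either mark.

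At chr19:38386422-38388723, which overlaps a processed pseudogene 7.26 kb from the start of Slc35g1, H3K9me3 was 48.2, 55.1 and 41.8 CPM in B6 and 16.1 and 18.9 in B6-13D2. It was 5.72 and 4.19 CPM in D2 and 18.2, 19.98 and 17.8 in D2-13B6. The log2 fold changes were -1.48 ± 0.22 and -1.96 ± 0.35 in the B6 and D2 backgrounds, and H3K27ac went from 24.4 ± 0.0023 to 77.3 ± 1.73 CPM (SD, n = 2) in the B6 background and from 30.3 ± 0.228 to 54.5 ± 0.479 CPM in the D2 background. B6-13D2 and D2-13B6 had overlapping H3K9me3 values at this region. A region with 1 pseudogene copy may share reads with its parent gene, which was not examined.

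Between genes at chr14:47624803-47626045, 22.4 kb from the start of Ktn1, which encodes a kinesin anchor of the endoplasmic reticulum, H3K9me3 was 12.4, 11.03 and 14.8 CPM in B6 against 1.89 and 2.36 in B6-13D2. It was 14.3, 10.2 and 7.32 CPM in D2-13B6 against 2.54 and 4.19 in D2. The log2 fold changes were -2.56 ± 0.43 and -1.60 ± 0.43 (adjusted p = 0.018 in the D2 background). The call in the D2 background was lost in 5 of 14 alternative settings, among them those without replicate 1 of D2 (-1.29), replicate 2 of D2 (-2.03) or replicate 1 of D2-13B6 (-1.43), and the call in the B6 background in 0. The fourth was chr17:6746701-6748054, over a coding exon of Ezr, which encodes ezrin, a linker between the cell membrane and actin. H3K9me3 there was 23.9, 23.6 and 21.9 CPM in B6, 8.99 and 13.7 in B6-13D2, 2.54 and 3.14 in D2 and 9.75, 7.31 and 8.23 in D2-13B6. Its log2 fold changes were -1.04 ± 0.26 (adjusted p = 0.011) and -1.56 ± 0.46 (adjusted p = 0.046) in the B6 and D2 backgrounds. Of 15 alternative settings, 6 lost the call in the B6 background, among them those without replicate 1 (-0.75) or 2 (-1.35) of B6-13D2 and 1 (-1.003) or 2 (-1.026) of B6, and 12 the call in the D2 background, with values from -1.73 to -1.40, while the average of -1.30 ± 0.26 was called in all 15. B6-13D2 and D2-13B6 overlapped at this region as well.

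**Figure D3:**
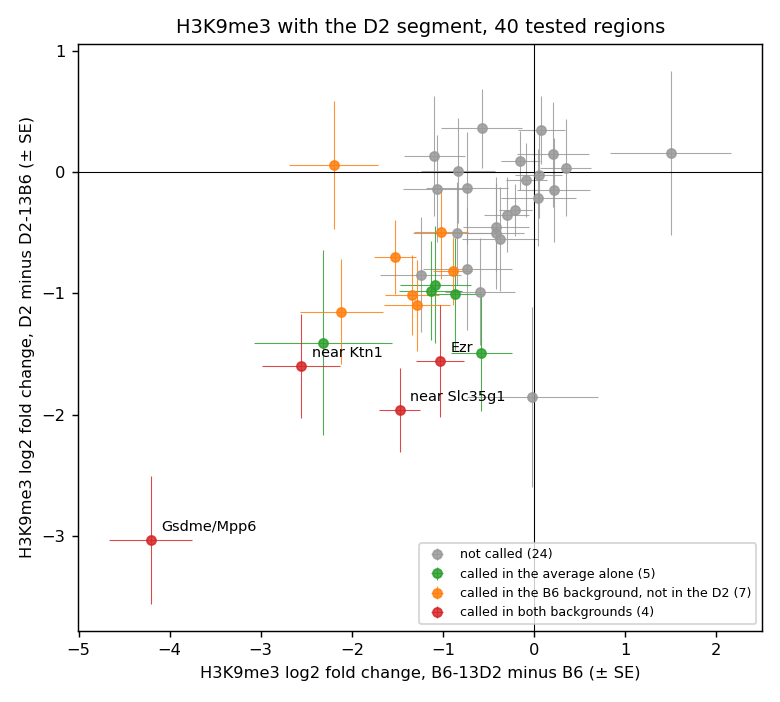
Change in H3K9me3 (log2 fold) between B6-13D2 and B6 on the x axis and between D2 and D2-13B6 on the y axis, at the 40 tested regions, with standard errors. Of the 40, 34 had an average below 0, and the 4 regions called in both backgrounds lie at -1.04 or lower on both axes.

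**Figure D4:**
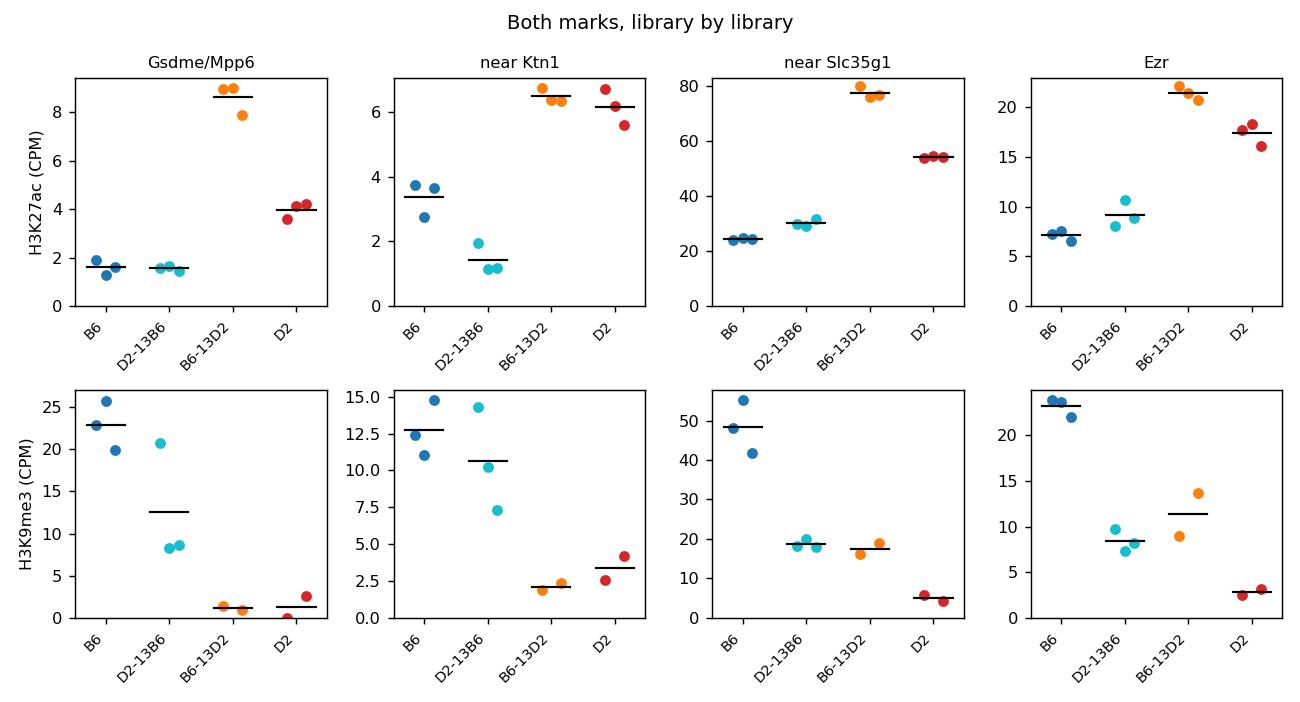
H3K27ac (top) and H3K9me3 (bottom) in CPM at the 4 regions called lower for H3K9me3 in both backgrounds, 1 point per library and a bar at the mean of each line. H3K27ac is higher in B6-13D2 and D2 in every panel, and H3K9me3 is lower in B6-13D2 than in B6 and in D2 than in D2-13B6.

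Other members passed the test in the B6 background or in the average. The neighbouring Ezr intron region, chr17:6742948-6746449, was at 56.7, 44.1 and 47.4 CPM of H3K9me3 in B6 and 17.97 and 16.5 in B6-13D2, a log2 fold change of -1.53 ± 0.23 (adjusted p = 7.6e-08), and at -0.70 ± 0.30 in the D2 background (adjusted p = 0.31). At chr8:110513932-110514737, a coding exon of Hydin, which encodes a protein of motile cilia, B6 had 10.4, 7.88 and 9.69 CPM and B6-13D2 1.89 and 2.36, a log2 fold change of -2.11 ± 0.45, not called without replicate 1 of B6-13D2 (-1.95) or by DESeq2. At chr3:97938582-97940277 in the noncoding gene Gm5544 the change was -1.34 ± 0.29 in the B6 background, again not called without replicate 1 of B6-13D2 (-1.03) or by DESeq2, and -1.18 ± 0.22 in the average. The Sgip1 region changed by -1.02 ± 0.30 in the B6 background with an adjusted p of 0.046, a call lost in 10 of 15 alternative settings. In 8 of these the value was -1.12 to -0.92, and it was -0.69 and -1.40 without replicate 1 or 2 of B6-13D2, which leave that line with 1 library. The Aass region, highest in H3K27ac ratio, was called in the average alone, at -1.03 ± 0.30 (adjusted p = 0.025), from B6 libraries of 15.9, 11.6 and 6.12 CPM that overlapped those of B6-13D2 at 8.04 and 7.08. That call was lost in 6 of 14 alternative settings, among them those without replicate 1 of B6 (-0.86), replicate 2 of D2 (-0.62) or replicate 1 (-1.06) or 2 (-0.97) of B6-13D2. At 8 of the 40 members every library with the D2 segment was below every library without it, and 7 of these were called; 0.592% of all tested regions had this order.

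At Adam32 no change in H3K9me3 was called. Of the 8 members, 3 had enough reads, and 0 were called in any of these contrasts. At chr8:24915972-24919956 H3K9me3 was 47.7, 57.8 and 52.0 CPM in B6, 48.7 and 43.0 in B6-13D2, 26.1 and 31.4 in D2 and 43.6, 32.2 and 30.6 in D2-13B6. The average log2 fold change was -0.26 with a normal 95% interval of -0.53 to 0.02, against the -1.72 of the chromosome 19 region. Summed over the 8 regions, H3K9me3 was 64.8 to 69.4 CPM in B6-13D2 and 75.5 to 85.1 in B6, and 47.7 to 56.6 in D2 and 63.1 to 67.0 in D2-13B6, so the sum was lower with the D2 segment in both backgrounds with no overlap between libraries; no test was made of this sum. The fully masked Cdk5rap1 region, chr2:154354568-154354824, with H3K27ac of 3.27 ± 0.102, 8.73 ± 1.54, 7.61 ± 1.86 and 3.06 ± 0.586 CPM (SD, n = 2) in B6, B6-13D2, D2 and D2-13B6, was not called either, at -0.41 ± 0.30. Cdk5rap1 encodes an enzyme that modifies tRNAs. The 14 called members had a median of 24.8% masked sequence and the other 50 one of 20.4%, and the AP-1 letters were in 3 of the 14 and 15 of the 50; neither contrast was tested.

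The separate B6 and D2 lines gave a comparison of the strains in libraries that the rule did not use, though lines B6 5-1 and D2 5-5 are in both sets. It answers whether the regions differ between the parental strains, and not what the segment does. For H3K27ac, 53 of the 64 members overlapped a region of that table, 43 distinct regions. Of these, 45 members in 35 distinct regions were higher in D2 and 0 lower by the same test, against 24.3% higher and 25.0% lower over all 96291 tested regions. The median log2 fold change was 1.11 over the members, against -0.01 over all, 52 of 53 were above 0 and 27 were at least 1. At an unadjusted p under 0.05 the counts were 46 and 0, and DESeq2 called 44 and 0. Without lines B6 5-1 and D2 5-5 the count was 42. At 45 members, again 35 regions, every D2 line was above every B6 line, an order found at 26.2% of all tested regions. The summed H3K27ac of the neural markers was also higher in D2, at 59.7 to 61.4 CPM against 49.9 to 54.2 in B6, and that of the primitive endoderm markers lower, at 11.7 to 12.6 against 15.1 to 15.3, both with no overlap between lines. The feeder (2.36 to 3.9 CPM), trophoblast and embryonic stem cell marker sums overlapped between the strains. The part of these sums in the strain differences was not tested.

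The largest strain difference was at the Sgip1 region, with H3K27ac of 0.669, 0.842 and 0.703 CPM in the B6 lines and 8.49, 9.91 and 7.63 in the D2 lines, a log2 fold change of 3.57 ± 0.20 (adjusted p = 7.3e-22). The Mpp6 and Gsdme array followed at 2.58 ± 0.21, from 0.837, 1.55 and 0.767 CPM to 5.68, 6.84 and 6.02. The Adam32 intron region chr8:24923356-24924049 was at 2.29 ± 0.14, the region over both Hydin members at 2.02 ± 0.12 and the region over both Slc35g1 members at 1.98 ± 0.08. The remaining Adam32 members fell in 2 wide regions at 1.86 ± 0.07 and 1.83 ± 0.08, and Aass in 1 at 1.85 ± 0.07. The H2-Eb1 start was at 5.36, 5.24 and 5.18 CPM in the B6 lines and 16.1, 20.9 and 18.01 in the D2 lines, 1.82 ± 0.12. In each of these the B6 and D2 lines did not overlap. The exception among the leading members was the wider region matched to the 257 bp Cdk5rap1 member, chr2:154352627-154355392. It had 9.99, 5.70 and 5.56 CPM in B6 and 7.022, 7.005 and 6.998 in D2, a log2 fold change of -0.02 ± 0.15. The other member in Cdk5rap1, chr2:154355675-154355850, also masked over its whole length, was higher in D2, from 1.28, 0.971 and 1.92 to 4.28, 3.17 and 3.21 CPM, at 1.36 ± 0.23, and its average H3K9me3 change was -1.05 ± 0.32 (adjusted p = 0.052). The others not called were near Gm5039, Psmc6 and Penk and in Dnah12, Trim2, Rwdd4a and Acad11, at 0.06 to 0.55. These values belong to the matched regions, which can be much wider. The 559 bp member near Gm5039 was matched to chr12:88335935-88343125.

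H3K9me3 in the separate lines could be tested at 34 members, of which 21 were lower in D2 and 0 higher, against 17.4% lower and 17.3% higher over all 44797 tested regions. At an unadjusted p under 0.05 the counts were 23 and 0, and DESeq2 called 18 and 0. The median log2 fold change was -0.86 over the members and 0.00 over all. At the Mpp6 and Gsdme array H3K9me3 was 36.3, 50.4 and 33.8 CPM in the B6 lines and 1.49, 2.74 and 0.505 in the D2 lines, -4.61 ± 0.33 (adjusted p = 1.8e-14). The chromosome 19 region changed by -3.50 ± 0.21, from 112, 82.5 and 72.9 to 5.96, 9.77 and 8.58 CPM, and the Ezr intron region by -3.37 ± 0.27. The region near Ktn1 changed by -3.35 ± 0.37 and chr10:59380116-59381091 near Gm10273 by -3.31 ± 0.43. Aass and Sgip1 changed by -1.83 ± 0.28 and -1.75 ± 0.27. In these lines the Adam32 region chr8:24915972-24919956 was lower in D2 as well, 38.7, 48.1 and 60.6 against 114, 86.3 and 90.7 CPM, at -1.07 ± 0.16.

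In the separate lines 20 members were called higher for H3K27ac and lower for H3K9me3 together, of 30 tested for both, against 8.95% of the 19290 eligible regions tested for both. Of the other members, 8 were called for H3K27ac alone and 2 for neither.

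**Figure D5:**
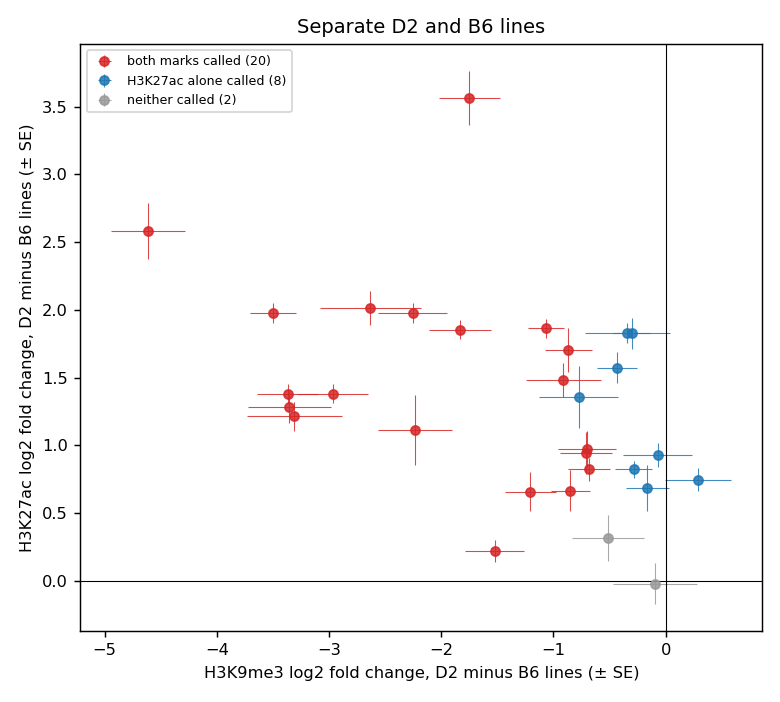
Log2 fold change of H3K9me3 (x axis) and H3K27ac (y axis) between the separate D2 and B6 lines, with standard errors, at the 30 members tested for both marks. The 20 members called for both marks lie at the upper left, with H3K27ac higher and H3K9me3 lower in D2.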

How the data were processed

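The authors deposited tables of raw read counts for each region. Duplicates had been removed, as the column names in the file headers state. Trimmomatic 0.39, HISAT2 2.2.1, MACS 1.4.2, bedtools 2.9.2 and edgeR are named in the submitters' processing notes with build mm10 and no roles. Columns were matched to samples by library name, and 3 columns were not used. Coordinates are those in the region names with 1 added to the start, as GRCm38. Annotation was GENCODE M21.

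The regions, gene lists and motifs were chosen with earlier results of these data known. The test was edgeR's quasi-likelihood F-test (edgeR 4.0.16, R 4.3.3) on the counts, with TMM scaling and the filterByExpr defaults (minimum count 10, minimum total count 15). The 10 repeated H3K9me3 libraries entered 1 fit over 4 lines, and the 6 libraries of each mark in separate lines 1 fit each. P-values were two-sided and adjusted by the Benjamini-Hochberg method over all tested regions, and called means an adjusted p under 0.05. Replicates of the repeated set are technical, so p-values measure the spread between libraries of 1 line. Pairs of replicates were checked against sampling noise with a chi-square statistic, using regions whose 2 counts summed to 40 or more. Members were matched to the H3K27ac table of separate lines by an overlap of at least 1 bp, largest kept. Neighbouring members can therefore share a region there, and that region can be much wider than the member. PCR reads carry no molecular identifiers, so the limit for a count of 0, set at 3 counts, covers counting error only. The tests were checked on simulated data. The sequence of 1 further window is not reported here.

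Regions named were the 10 members with the largest smallest ratio, those at gene starts, up to 5 called per contrast and direction (smallest p for H3K9me3, largest difference for H3K27ac), any with a gene on the lists (there were 0), the 2 on each side of the ratio of 1.7, and the 3 stretches with most members (2 had more than 2, and the third was the one with the highest H3K27ac in D2 among 6 with 2 members, a tie-break chosen with the data in view); other names in lists of exceptions were added after their values were seen. Alternatives were DESeq2 1.42.0, library totals, other filters, a replicate block, left-out libraries, other thresholds of the rule, and 2 readings of the rule added after the data were seen.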

Additional observations from a re-analysis of the deposited data

How the results depend on the processing

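The number of regions selected depended on the rule's settings. From 64 it went to 197 at a ratio of 1.5, to 17 at 2.0, to 30 with 0.5 CPM added in place of 0.1, and to 10 when every single library had to meet the ratio. Settings added after the data were seen gave 99 with 0.1 CPM on both sides of the ratio, and 101 with the near-identical pairs summed, of which 56 were shared. With TMM scaling it was 72, of which 49 were shared. Leaving out 1 library gave 61 to 124 regions, the most without replicate 2 of D2-13B6, 113 without its replicate 3, and 70 without its replicate 1. Members called lower for H3K9me3 were 7 in the B6 background, 5 in the D2 background and 7 in the average with a minimum mean of 20 counts, which left 13 members tested. They were 2 in the D2 background with no filter, and 4, 2 and 9 in the B6 background, the D2 background and the average with DESeq2. Without 1 library they ranged from 4 to 13, 2 to 4 and 9 to 14. In the separate lines the leave-one-out counts were 20 to 22 for lower H3K9me3 and 44 to 47 for higher H3K27ac. The cause of these shifts was not tested. Among the named calls, 700 values under an alternative kept their side of the threshold, 59 fell short of it and 0 reversed. Same-numbered H3K9me3 replicates of D2 and D2-13B6 had correlated deviations (0.202 and 0.119, 2 pairs), while the other pairs of that table had correlations of -0.053 to 0.025 and those of the separate lines -0.068 to 0.05 and -0.041 to -0.013. The labels do not say that a number marks a shared batch, so the numbers were not taken to pair samples. With the replicate block, 10, 4 and 11 members were lower for H3K9me3 in the B6 background, the D2 background and the average, 0 in the interaction, 21 between strains, and 45 were higher for H3K27ac between strains. The filter on low H3K9me3 counts limited the test to 40 members. The other 24 had a median of 2.4 CPM in B6 and a median width of 541 bp.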

Other observations

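Applied the other way round, the rule found 1356 regions with less H3K27ac in both lines with the D2 segment, of 97777 that met its level requirement. At those, soft-masked repeats made up a median of 59.995% of the sequence, against 20.9% at the 64 members, 175 (12.9%) reached the tandem measure of 20% against 2 of the 64, and 12 members lay on chromosome 8, 18.75%, against 5.01%. In the average H3K9me3 contrast 348 of the 1022 tested were higher and 5 lower, with a median log2 fold change of 0.51, against 0 higher and 14 lower of 40 at the members, with a median of -0.72. The 2 sets were not compared by a test.

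Levels at several members differed in ways the segment contrast does not describe. The Dnah12 region, chr14:26858244-26858766, had H3K27ac of 11.1 ± 0.392 CPM in B6-13D2 (SD, n = 2) and 4.00 ± 0.0087 in D2, with 1.80 ± 0.935 in B6 and 1.41 ± 0.64 in D2-13B6, and its strain difference in the separate lines was 0.32 ± 0.17 on the log2 scale (adjusted p = 0.11). The Hydin coding exon region went the other way, with 8.36 ± 0.158 CPM in D2 and 3.82 ± 0.256 in B6-13D2. Dnah12 encodes a ciliary dynein heavy chain. The Dnah12 region was named after its values were seen.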
